A study of Malus domestica with 6 samples.

Results

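The 8 apple genes described here were given as copies of enzymes that open the route to phenylpropanoids and flavonoids. Of the 8, 3 were given as phenylalanine ammonia-lyase (PAL), 3 as chalcone synthase (CHS) and 2 as chalcone isomerase (CHI). They were taken by identifier from the 46558 genes listed in a count table and an FPKM table (counts divided by gene length and by the total of the library). The PAL copies are MD01G1106900, MD04G1096200 and MD12G1116700, the CHS copies are MD04G1003300, MD04G1003400 and MD13G1285100, and the CHI copies are MD01G1118000 and MD01G1118100. The enzyme names came with this choice of identifiers. The deposited tables carry no gene names, and the names were not checked against an annotation here. Whether apple has further copies of these enzymes was not checked either. Sums, shares and orders of copies therefore cover the 8 listed genes only.

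PAL removes the amino group of phenylalanine to give cinnamic acid, the start of lignin, chlorogenic acid and all flavonoids. CHS joins p-coumaroyl-CoA with malonyl-CoA into a chalcone, the step that commits carbon to flavonoids, and CHI closes the chalcone into the flavanone naringenin. Flavonols, red anthocyanins and catechins of the apple skin are made from there. In plants PAL genes are known to respond to wounding and infection, and CHS genes to light.

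RNA-seq libraries came from the pericarp of Fuji apples, all of them with the genotype label WT. The EGCG group (3 libraries) was held under vacuum for 5 min in a 5 μmol per litre aqueous solution of epigallocatechin-3-gallate, itself a flavonoid of the catechin class and the main catechin of tea. The control group (3 libraries, titled WT) was treated in the same way in water by the design text, although the control label reads ddH2O2, and which of these is right was not settled. Apples were stored for 10 days before sampling, 30 apples were treated per group, and a library is taken as 1 apple. The cell type label names epidermal cells, which was not checked against marker genes here because no gene names were matched to the identifiers.

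Total counts ran from 17564402 to 19549798 per library. On the first principal component of log2 CPM (counts scaled to the total of the library), with 40% of the variance, EGCG replicate 3 (9.18) lay beside control replicate 2 (11.2) rather than with EGCG replicates 1 (-41.5) and 2 (-58.7). Control replicates 1 and 3 lay at 33.2 and 46.6. In peel, fewer cells that use a gene and less RNA per cell cannot be told apart.

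Division of counts by FPKM and by column total gave each gene the length that the authors had used. It was 2543 bases for MD01G1106900, 2630 for MD04G1096200 and 2399 for MD12G1116700. The CHS copies had lengths of 1511, 1515 and 1382 bases in the order given above, and the CHI copies 1020 and 1532 bases. Levels of different copies are compared in FPKM, which takes these lengths into account.

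Over the listed copies PAL was the most abundant of the enzymes, and nearly all of its summed level came from 2 of the 3 copies. MD01G1106900 stood at 22.0, 18.4 and 30.1 FPKM in EGCG replicates 1, 2 and 3, against 37.7, 16.2 and 27.5 FPKM in control replicates 1, 2 and 3. MD12G1116700 stood at 37.8, 26.3 and 18.1 FPKM in the EGCG libraries, against 15.7, 25.9 and 11.4 FPKM in the controls. Both lay above more than 86% of the 34458 genes with any count, at 87.8% and 86.3% by mean FPKM. The groups overlapped for each: MD01G1106900 was highest in control replicate 1 and lowest in control replicate 2, and MD12G1116700 was highest in EGCG replicate 1 and lowest in control replicate 3.

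The remaining PAL copy, MD04G1096200, was scarce and uneven. It stood at 0.873, 0.460 and 1.09 FPKM in the EGCG libraries, against 3.30, 0.543 and 0.173 FPKM in the controls. The controls thus held both its highest and its lowest value, a span of 19.1-fold that enclosed the whole EGCG range. It was read 43, 23 and 56 times in EGCG libraries and 165, 26 and 8 times in the controls, and the exact 95% Poisson intervals of the extremes (141 to 192 and 3.45 to 15.8 counts) lay far apart, so counting error alone does not cover the span. These intervals cover counting error only. They may be too narrow even for that, because PCR copies of a molecule were not told apart by molecular identifiers.

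MD04G1003400 was the leading CHS copy. It stood at 4.16, 3.30 and 9.25 FPKM in EGCG replicates 1, 2 and 3, against 21.3, 9.43 and 2.18 FPKM in control replicates 1, 2 and 3. The adjacent identifier MD04G1003300 stood at 0.848, 0.452 and 1.18 FPKM in the EGCG libraries, against 8.88, 2.87 and 0.528 FPKM in the controls. MD13G1285100 stood at 0.386, 0.152 and 0.629 FPKM in the EGCG libraries, against 3.31, 1.39 and 0.330 FPKM in the controls. In all 3 copies control replicate 1 was the highest library. For MD04G1003300 and MD13G1285100 control replicate 2 came next and control replicate 3 fell within the EGCG range, while for MD04G1003400 control replicate 3 was the lowest library of all and EGCG replicate 3 lay just under control replicate 2.

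Of the CHI copies, MD01G1118000 had the narrowest span of the 8 genes, 1.97-fold between its highest and lowest library. It stood at 2.67, 2.27 and 1.35 FPKM in the EGCG libraries, against 1.81, 2.26 and 1.51 FPKM in the controls, so the EGCG range enclosed the control range. MD01G1118100 stood at 0.802, 5.73 and 0.434 FPKM in the EGCG libraries, against 0.687, 1.18 and 0.632 FPKM in the controls. EGCG replicate 2 stood alone here with 167 counts, where the other 5 libraries had between 13 and 33.

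**Figure D1:**
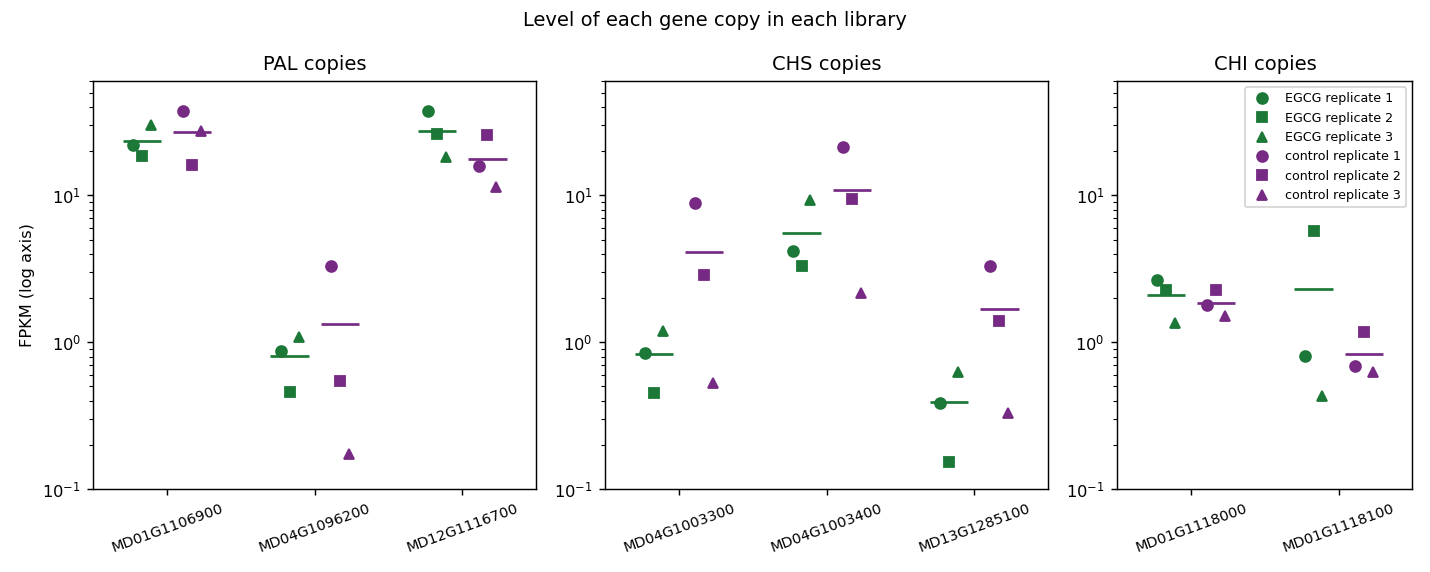
Level of each of the 8 genes in FPKM on a log axis, with EGCG libraries in green to the left and control libraries in purple to the right of each gene, 1 marker shape per replicate number and a bar at the group mean. The leading PAL copies lie between 11.4 and 37.8 FPKM, the CHS copies share a maximum in control replicate 1, and MD01G1118100 has a single high value of 5.73 FPKM in EGCG replicate 2.

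The copies of an enzyme were compared within each library by a two-sided exact sign-flip permutation test on log2(FPKM + 0.1), with Benjamini-Hochberg adjustment over the 7 pairs. The smallest p that 6 libraries allow is 0.0312, which becomes 0.0437 when adjusted. Of the 7 pairs, 5 reached it, because 1 copy was higher in 6 of 6 libraries.

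MD01G1106900 exceeded MD04G1096200 by 28.6-fold (mean log2 difference 4.84 ± 1.04, SD, n = 6), and MD12G1116700 exceeded it by 24.6-fold (4.62 ± 1.32, SD, n = 6). MD01G1106900 and MD12G1116700 were not separated: each was the higher copy in 3 of 6 libraries, with a mean log2 difference of 0.21 ± 0.97 (SD, n = 6; exact permutation test, adjusted p = 0.594). Among the CHS copies, MD04G1003400 exceeded MD04G1003300 by 4.21-fold (2.07 ± 0.60, SD, n = 6) and MD13G1285100 by 8.27-fold (3.05 ± 0.57, SD, n = 6). MD04G1003300 in turn exceeded MD13G1285100 by 1.97-fold (0.98 ± 0.29, SD, n = 6), so the order of the CHS copies by FPKM was the same in every library. MD13G1285100 was read only 10, 4 and 17 times in EGCG replicates 1, 2 and 3, and 87, 35 and 8 times in the controls. The exact 95% Poisson intervals of these 2 copies overlapped in every EGCG library and in control replicate 3. Their order within those single libraries is therefore uncertain. MD01G1118000 exceeded MD01G1118100 in 5 of 6 libraries, with EGCG replicate 2 as the exception, by 0.84 ± 1.08 on the log2 scale (SD, n = 6; exact permutation test, adjusted p = 0.182).

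Summed over its listed copies, PAL reached 60.7, 45.1 and 49.3 FPKM in the EGCG libraries, against 56.8, 42.7 and 39.1 FPKM in the controls. Summed CHS reached 5.39, 3.90 and 11.1 FPKM in the EGCG libraries, against 33.4, 13.7 and 3.04 FPKM in the controls. Summed CHI reached 3.47, 7.995 and 1.79 FPKM in the EGCG libraries, against 2.49, 3.45 and 2.14 FPKM in the controls. PAL was above CHS and above CHI in 6 of 6 libraries, by 5.83-fold and 15.5-fold (two-sided exact sign-flip permutation test, adjusted p = 0.0469 over 3 pairs for each). CHS was above CHI in 5 of 6 libraries, by 2.66-fold (exact permutation test, adjusted p = 0.125), so these neighbours in the order were not separated.

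The 3 pairs of CHS copies had r values of 0.905 to 0.986 across the libraries, of which 1 passed the test, and the r of the leading PAL copies was -0.659. The difference between these r values was not tested. Relations were computed for all 28 pairs of the 8 genes on log2 CPM over the 6 libraries, after the values had been seen, with exact permutation tests and Benjamini-Hochberg adjustment over the 28. MD04G1003300 and MD13G1285100 had a Pearson r of 0.986 (exact permutation p = 0.00139, adjusted p = 0.0389) and a Spearman rho of 1 (exact permutation p = 0.00278, adjusted p = 0.0778). Without control replicates 1 and 2, the 2 libraries farthest from the median of MD04G1003300, r was 0.913. This pair had the only Pearson r of the 28 with an adjusted p under 0.05, and no rho passed. Counts of MD13G1285100 were as low as 4 (EGCG replicate 2), so the ranks behind its rho are uncertain.

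MD04G1003400 followed the other CHS copies with r values of 0.933 for MD04G1003300 (rho 0.943, adjusted exact permutation p = 0.0583 for r and 0.156 for rho) and 0.905 for MD13G1285100 (rho 0.943, adjusted exact permutation p = 0.117 for r and 0.156 for rho). Without the 2 libraries farthest from the median of the gene on the x axis, r was 0.875 (MD04G1003300) and 0.901 (MD04G1003400) for these pairs. Where copies are nearly identical in sequence, reads of one can be counted for another, and the part of this in the shared profile was not tested.

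The rare PAL copy MD04G1096200 shared the maximum in control replicate 1 with CHS. Its r with MD04G1003400 was 0.876 (rho 0.829, adjusted exact permutation p = 0.117 for r and 0.272 for rho), but it was 0.337 without control replicates 1 and 3, so this relation rests on those libraries. Its r was 0.779 with MD04G1003300 and 0.709 with MD13G1285100 (adjusted exact permutation p = 0.305 and 0.489). Without the same libraries these were 0.0536 and 0.168. The r of MD01G1106900 with MD12G1116700 was -0.659 (rho -0.6, adjusted exact permutation p = 0.494 for r and 0.521 for rho), which does not pass the test. For MD12G1116700 and the CHI copy MD01G1118000 it was 0.864 (rho 0.829, adjusted exact permutation p = 0.179 for r and 0.272 for rho), which does not pass either, and r was 0.780 without EGCG replicate 1 and control replicate 3. Relations within each group were not tested. The group means were then subtracted from the log2 CPM values, a description with no test. After this r was 0.976 to 0.984 for the 3 pairs of CHS copies, -0.703 for MD01G1106900 with MD12G1116700 and 0.925 for MD12G1116700 with MD01G1118000. For MD04G1096200 it was 0.969 with MD04G1003300, 0.925 with MD04G1003400 and 0.946 with MD13G1285100.

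Between enzymes, no relation of the summed levels passed the test, and 6 libraries are too few to show that there was none. The r of log2 summed FPKM was 0.440 for PAL and CHS (rho 0.429), -0.043 for PAL and CHI (rho 0.2) and -0.335 for CHS and CHI (rho -0.143). Adjusted over the 3 pairs, the exact permutation p was 0.796, 0.932 and 0.796 for r in the same order, and 0.803 for each rho. Without the 2 libraries farthest from the median of the enzyme named first, r was 0.679, -0.513 and -0.743.

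**Figure D2:**
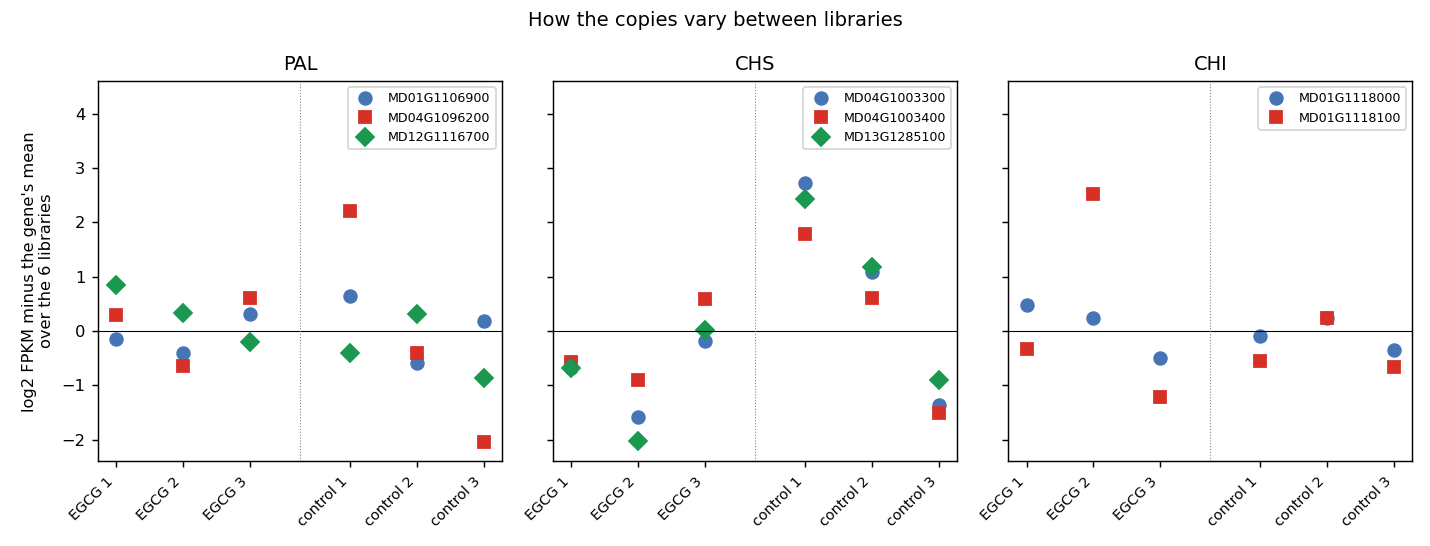
Log2 FPKM of each gene minus its own mean over the 6 libraries, with the EGCG libraries left of the dotted line and the control libraries right of it, 1 panel per enzyme. The CHS symbols all peak in control 1, the symbols of MD01G1106900 and MD12G1116700 lie on opposite sides of 0 in every library, and MD01G1118100 departs from MD01G1118000 in EGCG 2.

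The shares of the CHS copies did not overlap between the groups, but the exact permutation test on library shares that was used for them cannot go below 0.1. MD04G1003400 made up 77.1%, 84.5% and 83.6% of summed CHS FPKM in EGCG replicates 1, 2 and 3, against 63.5%, 68.9% and 71.8% in control replicates 1, 2 and 3. Its mean share was 81.7% ± 4.03 in EGCG libraries and 68.1% ± 4.17 in control libraries (SD, n = 3 each), a difference of 13.7 percentage points. The share of MD04G1003300 was 12.7% ± 2.68 in EGCG libraries and 21.6% ± 4.62 in control libraries (SD, n = 3 each), and that of MD13G1285100 was 5.58% ± 1.63 and 10.3% ± 0.491 in the same order (SD, n = 3 each).

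The shares of an enzyme add up to the whole, so the shift of 1 CHS copy partly fixes the others. For each CHS copy the two-sided exact permutation p was 0.1, the smallest that 3 libraries against 3 allow, and it was 0.233 when adjusted over the 7 shares tested. Depth limits the single values. By counts, MD04G1003400 held 118 of 152 CHS counts in EGCG replicate 1 (77.6%, exact Clopper-Pearson 95% interval 70.2% to 84.0%), and 58 of 80 in control replicate 3 (72.5%, interval 61.4% to 81.9%). The intervals of these libraries, the nearest of the 2 groups, overlap. Counts of MD13G1285100 were lower, with 4 of 112 in EGCG replicate 2 (3.57%, interval 0.982% to 8.89%). In control replicate 3 they were 8 of 80 (10.0%, interval 4.42% to 18.8%).

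The shares of the PAL copies overlapped between the groups, and for the leading copies this rested on control replicate 2. Without it the groups did not overlap, and EGCG minus control was -22.3 percentage points for MD01G1106900 and 23.9 for MD12G1116700. MD01G1106900 made up 36.3%, 40.8% and 61.0% of summed PAL FPKM in the EGCG libraries, against 66.5%, 37.9% and 70.3% in the controls (two-sided exact permutation p = 0.3, adjusted p = 0.42). EGCG replicate 3 had a mix near that of control replicates 1 and 3, and control replicate 2 a mix near that of EGCG replicates 1 and 2. Within CHI, MD01G1118100 made up 23.1%, 71.6% and 24.3% of summed FPKM in the EGCG libraries, against 27.6%, 34.3% and 29.5% in the controls (two-sided exact permutation p = 1). Only EGCG replicate 2 had more of this copy than of MD01G1118000. The difference in mean share (EGCG minus control) was -9.19 percentage points for MD01G1118000, and 6.8 points without EGCG replicate 2. Without that library the CHI groups did not overlap either, but with the opposite sign. MD01G1118000 then held 76.9% and 75.7% in EGCG libraries, against 65.7% to 72.4% in the controls. The difference in mean share of the rare PAL copy MD04G1096200 was -0.954 points, and 0.698 points without control replicate 1.

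**Figure D3:**
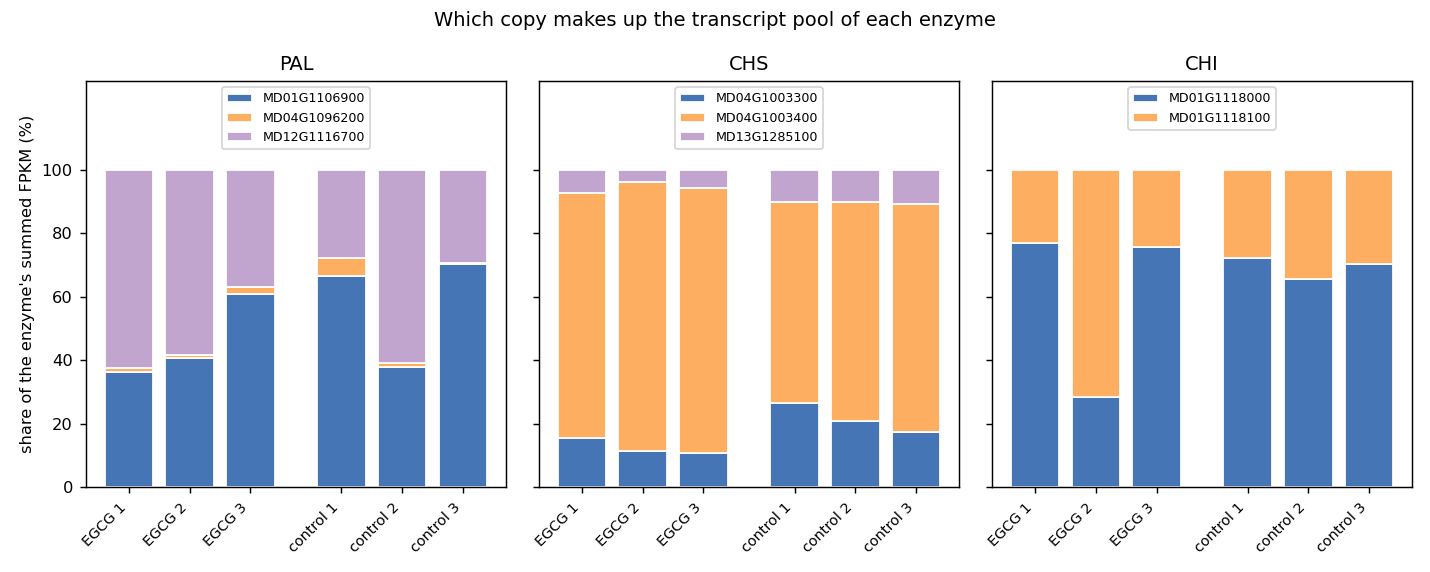
Share of each copy in the summed FPKM of its enzyme, in percent, as stacked bars from 0 for the EGCG libraries on the left and the control libraries on the right of each panel. MD04G1003400 makes up 77.1% to 84.5% of CHS in EGCG libraries and 63.5% to 71.8% in control libraries, the leading PAL copy changes from apple to apple in both groups, and EGCG 2 is the exception within CHI.

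EGCG and control peel were then compared gene by gene with edgeR's quasi-likelihood test on the counts of all genes. All 8 genes had enough counts to be among the 24960 tested, and none was called at an adjusted p under 0.05 (0% of all tested genes were called). The smallest adjusted p of the 8 was 0.528. DESeq2 also called 0 of the 8, with 0.943% of the genes it tested called and a smallest adjusted p of 0.259, and limma-voom called 0 of the 8 and 0% of all genes. The CPM ranges of the groups overlapped in each of the 8, against no overlap in 14.5% of all tested genes.

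At an unadjusted p under 0.05 edgeR gave 2 of the 8, the CHS copies MD04G1003300 and MD13G1285100, both with the lower mean in EGCG peel. This compares with 8.71% of all tested genes, or 4.38% counted on the lower side. DESeq2 gave 3 of the 8, against 6.19% of its genes, and limma-voom gave 0, against 8.59%. The same 2 CHS copies had a fitted fold of at least 2 on the lower side (2% of all tested genes), and MD01G1118100 had one on the higher side (1.68% of all tested genes). The median log2 fold change of the 8 was -0.44, with 3 positive and 5 negative values, and that of all tested genes was -0.0017. Their median absolute log2 fold change was 0.83, and that of all tested genes was 0.15. The tested genes were not matched to the 8 for abundance or for spread between libraries, so these medians are a description.

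All 3 CHS copies had negative fold changes with wide intervals. MD04G1003300 averaged 1.26 ± 0.534 CPM in EGCG libraries and 6.07 ± 6.32 CPM in control libraries (SD, n = 3 each). The fitted log2 fold change was -2.27 (SE 0.85), with a 95% interval of -4.23 to -0.31 (edgeR, unadjusted p = 0.0283, adjusted p = 0.528). MD13G1285100 averaged 0.539 ± 0.321 CPM in EGCG libraries and 2.28 ± 2.03 CPM in control libraries (SD, n = 3 each), with a log2 fold change of -2.07 (SE 0.79) and an interval of -3.90 to -0.24 (edgeR, unadjusted p = 0.0315, adjusted p = 0.536). MD04G1003400 averaged 8.45 ± 4.70 CPM in EGCG libraries and 16.3 ± 14.1 CPM in control libraries (SD, n = 3 each), with a log2 fold change of -0.95 (SE 0.69) and an interval of -2.55 to 0.65 (edgeR, adjusted p = 0.724).

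These differences leaned on control replicate 1. Without it the log2 fold changes were -1.02 for MD04G1003300, -1.13 for MD13G1285100 and -0.05 for MD04G1003400, with unadjusted edgeR p-values of 0.187, 0.181 and 0.935. Without control replicate 3, the control library with the least CHS, they were -2.78, -2.55 and -1.43, with unadjusted edgeR p-values of 0.00147, 0.0039 and 0.0208. No adjusted p passed in either case. The summed CHS counts were 152, 112 and 326 in the EGCG libraries, against 954, 374 and 80 in the controls, with a log2 fold change of -1.27 and an interval of -2.94 to 0.40 (edgeR, adjusted p = 0.650). Without control replicate 1 the summed log2 fold change was -0.29.

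The leading PAL copies had fold changes of opposite sign. MD12G1116700 averaged 66.5 ± 24.7 CPM in EGCG libraries and 42.2 ± 17.9 CPM in control libraries (SD, n = 3 each), with a log2 fold change of 0.66 (SE 0.34) and an interval of -0.13 to 1.45 (edgeR, adjusted p = 0.624). It was 0.35 without EGCG replicate 1 and 1.04 without control replicate 2. MD01G1106900 averaged 60.1 ± 14.0 CPM in EGCG libraries and 68.4 ± 26.3 CPM in control libraries (SD, n = 3 each), with a log2 fold change of -0.19 and an interval of -0.85 to 0.48 (edgeR, adjusted p = 0.884). MD04G1096200 had a log2 fold change of -0.70 and an interval of -2.71 to 1.31 (edgeR, adjusted p = 0.848), which was 0.10 in limma-voom and 1.17 without control replicate 1. Summed PAL had the narrowest interval of the enzymes, a log2 fold change of 0.18 between -0.20 and 0.55 (edgeR, adjusted p = 0.787).

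Of the CHI copies, MD01G1118000 had a log2 fold change of 0.20 with an interval of -0.57 to 0.97 (edgeR, adjusted p = 0.894). MD01G1118100 averaged 3.63 ± 4.65 CPM in EGCG libraries and 1.27 ± 0.468 CPM in control libraries (SD, n = 3 each), with a log2 fold change of 1.51 and an interval of -0.55 to 3.57 (edgeR, adjusted p = 0.664). Without EGCG replicate 2 its log2 fold change was -0.42. Summed CHI had a log2 fold change of 0.87 with an interval of -0.44 to 2.19 (edgeR, adjusted p = 0.694), and of -0.067 without EGCG replicate 2.

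**Figure D4:**
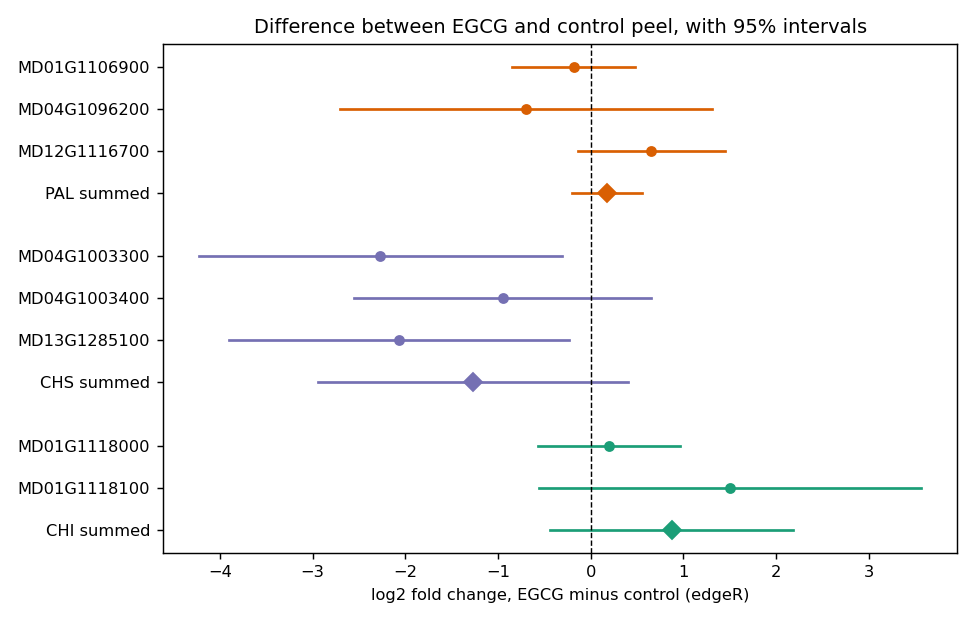
Log2 fold change of EGCG minus control in edgeR for the 8 genes (circles) and for the summed counts of each enzyme (diamonds), with lines for 95% intervals. MD04G1003300 and MD13G1285100 have intervals that lie below 0, from -4.23 to -0.31 and from -3.90 to -0.24, and none of the 8 genes or 3 sums passed after adjustment over all tested genes.

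Of the 8 genes, 7 lay high in spread between apples among genes of like abundance. The spread is given as the biological coefficient of variation, edgeR's estimate of the spread between libraries of 1 group beyond counting error, which was 16.5% for the median tested gene. The tested genes were divided into 4 sets of equal size by mean CPM. MD04G1003400 had a coefficient of 57.4%, above 99.3% of its set (median 13.3%). MD04G1003300 had 66.4%, above 99.0% of its set (median 18.4%), and MD13G1285100 had 62.3%, above 96.4% of its set (median 28.6%).

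Both leading PAL copies also varied more than most abundant genes, with 25.5% for MD01G1106900 and 29.7% for MD12G1116700, above 96.0% and 97.3% of a set with a median of 12%. The coefficients of MD04G1096200 (71.8%) and MD01G1118100 (70.4%) lay above 97.9% and 97.7% of the set of lowest abundance. MD01G1118000, at 27.5%, lay above 44.4% of that set. The genes had been chosen with earlier results of these data known, so the ranks are a description.

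The spread did not lie in the same group for all enzymes. The SD of log2 CPM was 0.62, 0.74 and 0.80 in EGCG libraries for MD04G1003300, MD04G1003400 and MD13G1285100, against 1.94, 1.62 and 1.52 in control libraries. For MD01G1118100 it was 1.87 in EGCG libraries and 0.46 in control libraries, and for MD01G1118000 0.51 and 0.27. Among the PAL copies it was 0.33 in EGCG and 0.60 in control libraries for MD01G1106900. It was 0.59 and 1.98 for MD04G1096200, and 0.55 and 0.59 for MD12G1116700, in the same order. The median over all tested genes was 0.18 in EGCG libraries and 0.19 in control libraries. With 3 libraries in a group, no test of these spreads was made. Single libraries set much of them. The SD pooled over both groups was 1.36 for MD01G1118100, and 0.505 without EGCG replicate 2. It was 1.46 for MD04G1096200, and 0.758 without control replicate 1. Without control replicate 3 it was 0.815 for MD04G1003300 and 0.762 for MD04G1003400, against 1.44 and 1.26 with all libraries. MD01G1106900 had a pooled SD of 0.485, and 0.316 without control replicate 2, and MD01G1118000 had 0.408, and 0.24 without EGCG replicate 3. The ranks of the coefficients were not recomputed without these libraries. The sum over PAL copies was steadier than its parts: its highest library was 1.55 times its lowest in FPKM, against 2.33 times for MD01G1106900 and 3.30 times for MD12G1116700, and its coefficient of variation was 16.0%. The sum over CHS copies had an 11-fold span and a coefficient of 59.2%, both within the ranges of its copies (9.75-fold to 21.8-fold, and 57.4% to 66.4%).

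**Figure D5:**
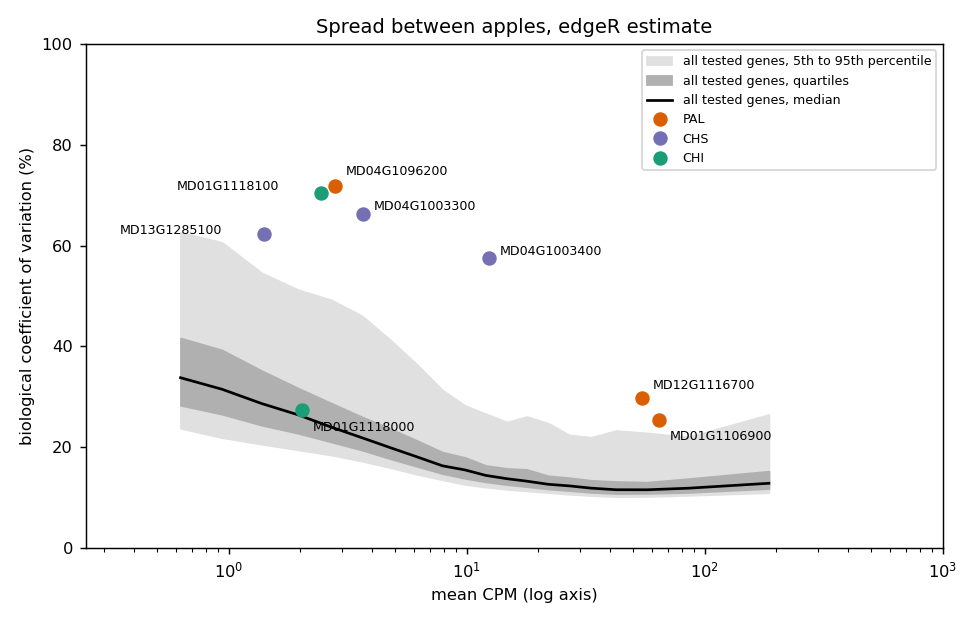
Biological coefficient of variation in percent against mean CPM on a log axis for the 8 genes, over the median, the quartiles and the 5th to 95th percentile of all tested genes in 20 bins of mean CPM. All but MD01G1118000, at 27.5%, lie above the 95th percentile band of genes of like abundance.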

How the data were processed

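RNA-seq counts of 6 peel libraries were used, grouped by their titles. Raw counts per gene were deposited by the authors, and FPKM values, also deposited by the authors, are these counts scaled by library total and gene length (a single length per gene, within 0.01 bases of a whole number for all 34458 genes with any count). Per the submitters' processing notes the tools included HISAT2, HTSeq, DESeq2, fastp and R 3.2.0, whose roles are not stated. Genome build, annotation and strand setting were not given in the sources used here. Coordinates are therefore left out, and reads of near-identical or overlapping genes may have been shared. None of the 46558 identifiers matched the 51804 RefSeq genes of apple assembly GDT2T_hap1, so no sequences are shown and further genes of the pathway, which were to be found by description, were not analysed here.

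The members and lists were chosen with earlier results of these data known. The test was edgeR 4.0.16 (R 4.3.3; glmQLFit, glmQLFTest, TMM, filterByExpr, all 6 libraries, group as the only term) on all genes, with two-sided p-values adjusted by Benjamini and Hochberg over 24960 genes at a threshold of 0.05. Sums of the counts of the copies were tested as added rows of the same fit. CPM uses TMM-scaled totals, and log2 CPM a prior count of 2. Standard errors follow from each F statistic. Copies were compared with exact permutation tests in Python 3.11.15. Alternatives were DESeq2 1.42.0, limma-voom (limma 3.58.1), other scalings and filters, limma-trend on log2(FPKM + 1) and log2(FPKM + 0.1), which understates changes of low genes, leaving out libraries and the replicate number as a block. Leaving out EGCG replicate 2 and control replicate 1 together was added after seeing the data. All 8 genes are named, and at most 4 other identifiers by likeness of profile.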

Additional observations from a re-analysis of the deposited data

How the results depend on the processing

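None of the 8 genes and none of the 3 sums was called under any alternative, the replicate block included, in edgeR, DESeq2, limma-voom and limma-trend. At a minimum of 1 CPM in 3 libraries MD13G1285100 was not tested. Of all genes, the main edgeR fit and limma-voom also called 0%, and DESeq2 called 0.943%. This share was not computed for the other alternatives, so the lack of calls is not particular to these genes. Over 17 alternatives the log2 fold change ran from 0.04 to 0.42 for summed PAL, from -1.79 to -0.024 for summed CHS and from -0.14 to 1.29 for summed CHI. MD12G1116700, MD04G1003300 and MD13G1285100 kept their sign in all alternatives that gave a value (MD13G1285100 had none at a minimum of 1 CPM in 3 libraries). Leaving out 1 library gave -0.45 to 0.11 for MD01G1106900, -1.21 to 1.17 for MD04G1096200, -0.016 to 0.45 for MD01G1118000, -0.42 to 2.01 for MD01G1118100 and -0.067 to 1.29 for summed CHI. MD04G1096200 turned to 0.10 in limma-voom and to 0.039 on log2(FPKM + 0.1). Without EGCG replicate 2 and control replicate 1 together, values were 0.25 for MD01G1106900, 1.44 for MD04G1096200, 0.20 for MD04G1003400, -0.55 for MD01G1118100 and -0.14 for summed CHI. Copy shares whose groups did not overlap numbered 3 of 7, and 3 to 5 without 1 library (5 without control replicate 2). Those 5 were the shares of the CHS copies and of the leading PAL copies. By regrouping alone, 3 libraries against 3 fail to overlap with a probability of 0.1, and more often with 1 library fewer. Shares of an enzyme are not separate results. The third PAL copy held only 0.443% to 5.82%, so the leading PAL shares nearly mirror each other. Control replicate 2 was the library that made them overlap. All 5 copy pairs past the threshold passed with each pseudocount and with counts; with 5 libraries an exact p cannot go below 0.0625, so only values were computed there. With the replicate block the log2 fold change was -0.99 for summed CHS (edgeR, adjusted p = 0.802) and 0.67 for MD12G1116700. The correlation of deviations from each group mean was -0.156, 0.133 and 0.164 for libraries numbered 1, 2 and 3. It ran from -0.267 to 0.143 for libraries of unlike number. With 3 libraries per group these values depend on each other and cannot settle whether a number marks a shared batch. The main fit therefore rests on an unchecked assumption that the libraries share only a number. No other cause of these differences was tested.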

Other observations

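Among the 13026 tested genes that averaged 10 CPM or more, MD05G1155400 and MD17G1018000 had the highest mean Pearson r with the 8 genes over the 6 libraries, 0.505 and 0.5. The lowest were -0.508 for MD03G1287300 and -0.506 for MD10G1285100. These are descriptions with no test, and the 8 genes share no single profile. Against the summed CHS profile alone, 64 of the 13026 genes (0.491%) had an r of at least 0.9 and 88 (0.676%) an r of -0.9 or less. MD05G1155400 had 281, 239 and 227 counts in EGCG libraries, against 492, 299 and 88 in controls, so that it shared the highest and the lowest control library with MD04G1003400.

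The identifiers within 5 rows of the 8 genes in the sorted table numbered 60, of which 28 were tested and 5 had an unadjusted edgeR p under 0.05, with 0 after adjustment. Of all tested genes, 8.71% had such a p. The median biological coefficient of variation was 15.2% for the 28 tested neighbours and 13.3% for those of CHS, against 57.4% to 66.4% for the CHS copies. The neighbours were not matched to the copies for abundance. One neighbour, singled out after its values were seen, had a high r with CHS. What it encodes was not checked, and it is not part of the CHS sums. MD04G1003000, to which the tables give no name, had 127, 77 and 301 counts in EGCG libraries, against 592, 176 and 83 in controls. Its r with summed CHS was 0.949 over the 6 libraries, its coefficient of variation was 56.5%, and its log2 fold change was -0.77 (SE 0.68; edgeR, adjusted p = 0.777). The 12 other tested neighbours of CHS had r values between -0.611 and 0.850.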
